A study of Caenorhabditis elegans with 12 samples.

Results

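Chromosome X of the nematode Caenorhabditis elegans held 402 of the 1788 sites at which all 3 ETS-5 precipitates placed a window, which is 22.5% of them. These sites are called shared X regions here. They were selected on measured values, namely the window positions of the 3 lists: windows with 1 bp or more in common were merged, a merged region had to hold a window of every list, and those on X were kept. The number of regions and their presence in every list are therefore descriptions and carry no test. At the edge of this rule, the members with the least overlap were joined by 70, 73 and 87 bp (median 368 bp over all members), while the nearest regions of 2 lists missed a window of the remaining list by 17, 23 and 26 bp (median 5437 bp).

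The data are chromatin immunoprecipitation with sequencing (ChIP-seq), in which DNA bound to a protein is pulled down with an antibody and sequenced. The series has 12 samples of whole-worm extract in 4 groups of 3: input and precipitate of the wild-type strain N2, and input and precipitate of the strain FQ237, whose ets-5 the series title gives as joined to gfp, the gene of green fluorescent protein (GFP). The antibody for the precipitates of both strains was against GFP. Only the window lists of the 3 FQ237 precipitates were used, so no difference from the wild type or from input was computed. Age, sex, the construct and the cells in which the fusion protein is made are not given in the labels used here, and a whole-worm extract mixes all tissues. The labels do not say that the 3 samples were separate cultures, and the spread between samples may therefore be technical only.

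ETS-5 belongs to the ETS family of transcription factors, which bind DNA at sites with a GGAA core. It is known for its role in the BAG neurons of the head, which sense respiratory gases. Hermaphrodites carry a pair of X chromosomes and males a single one. A dosage compensation complex binds both X chromosomes of hermaphrodites and lowers their transcription, and X is largely silent in the germline. Many genes for neurons and muscle lie on X, few genes for the germline do, and the gene ets-5 is itself X-linked.

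The lists give positions without heights, read counts or p-values, so the depth behind each window is unknown. Replicates 1, 2 and 3 had 852, 622 and 715 windows on X. Of these, 47.3%, 64.8% and 56.2% fell in shared X regions, against 46.9%, 60.5% and 46.5% of the autosomal windows in shared autosomal regions. Replicate 3 thus had the widest gap between X and the autosomes in this measure. The shared X regions were 400 to 1027 bp wide (median 442 bp), and the window centres within a region lay a median of 42 bp apart at most. On the autosomes these medians were 448 and 48 bp.

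Shared regions were denser on X than on any autosome per length of chromosome. X held 22.7 shared regions per megabase (Mb), ahead of chromosome III with 20.7, I with 19.6, II with 16.7, IV with 14.5 and V with 14.2. In the full lists X had 48.1, 35.1 and 40.4 windows per Mb in replicates 1 to 3, and the autosomes together had 35.8, 27.8 and 36.1. X was higher in 3 of 3 lists, by 7.93 ± 4.04 windows per Mb (SD, n = 3). These lists hold the windows that chose the members, so densities are descriptions here and carry no test. Other measures below were put to an exact permutation test over lists. The smallest two-sided p that 3 lists allow in it is 0.25.

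The ranking changed when genes were taken into account. X has the fewest protein-coding genes per length of the 6 chromosomes, 154 per Mb against 209 on the autosomes together, and 54.4% of its length lies inside such genes against 63.5%. Per Mb of sequence outside genes, X held 36.2 shared regions, between chromosome I with 43.4 and III with 35.5, and above the 25.7, 23.9 and 23.2 of II, V and IV. Per Mb inside genes, X held 11.3, level with II at 11.3 and below III at 13.97. On neither measure did X lie outside the range of the autosomes. In the lists, the density outside genes was 71.4, 56.04 and 62.8 windows per Mb on X in replicates 1 to 3. On the autosomes it was 58.1, 49.1 and 60.6, a difference of 7.48 ± 5.55 (SD, n = 3). Inside genes the density was 28.5, 17.5 and 21.5 on X and 23.1, 15.6 and 22.1 on the autosomes, so replicate 3 went the other way.

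**Figure D1:**
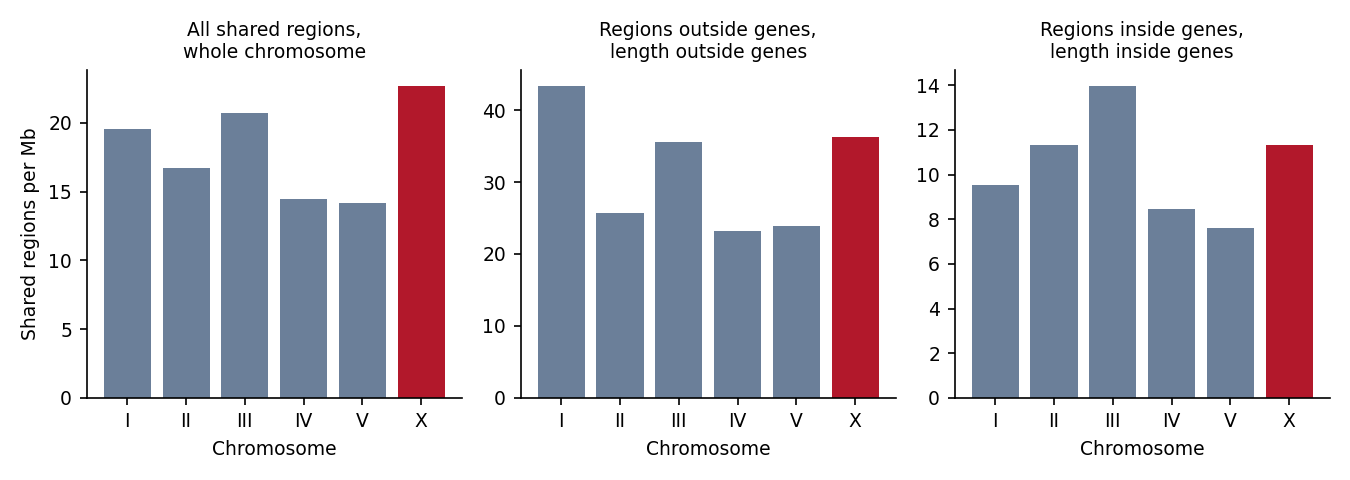
Shared regions per Mb on each chromosome (X in red), for all regions over the whole chromosome, for regions outside protein-coding genes over the length outside genes, and for regions inside genes over the length inside genes. X is the highest bar at 22.7 per Mb on the left, second to chromosome I (36.2 against 43.4) in the middle panel, and below chromosome III (11.3 against 13.97) on the right.

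The shared X regions lay outside protein-coding genes more often than autosomal ones. Of the 402, 109 (27.1%) had their centre inside a gene, while 524 of 1386 autosomal shared regions did (37.8%). The odds ratio was 0.612 (two-sided Fisher's exact test, p = 0.000353 after adjustment over 5 measures of place). A further 102 (25.4%) lay more than 2000 bp away from such genes, while 255 autosomal regions did (18.4%), an odds ratio of 1.51 (adjusted p = 0.00715 by Fisher's exact test). The classes between did not pass: 89 X regions (22.1% against 20.5%) lay within 500 bp of a gene and 102 (25.4% against 23.3%) lay from 500 to 2000 bp away (Fisher's exact test, adjusted p = 0.607 for each). Near a gene end, that is, no more than 2000 bp beyond a gene's end or 500 bp within it,, lay 54.5% of X regions and 55.7% of autosomal ones (adjusted p = 0.690, Fisher's exact test). The tests treat regions as independent, and they compare parts of the same 3 libraries. Their null of equal shares ignores that 54.4% of the length of X and 63.5% of autosomal length lies inside genes. More of the length of X also lies beyond 2000 bp from genes. The small p-values therefore do not separate the place of the regions from chromosome layout. They do not stand for replication over libraries, for which the test over lists is given next.

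The full lists gave differences of the same size. Inside genes lay 29.5% ± 2.59 of X windows and 38.4% ± 2.65 of autosomal windows (SD, n = 3), a difference of -8.97 ± 0.761 percentage points, lower on X in 3 of 3 lists. Beyond 2000 bp lay 25.8% ± 0.731 against 19.7% ± 0.562, higher on X in 3 of 3 lists by 6.11 ± 1.17 points. The exact permutation test over lists gave p = 0.25 for both. Among the single chromosomes, the share of shared regions inside genes was lowest on X, followed by V with 31.99%, I with 34.2%, IV with 34.8%, II with 42.4% and III with 46.2%. The exact 95% binomial interval for X, 22.8% to 31.7%, overlapped those of V, I and IV. The share beyond 2000 bp was highest on X, followed by V with 22.2% and IV with 20.9%, and lowest on I with 14.6%. When every annotated gene was counted and not protein-coding genes alone, the differences shrank to -6.49 and 3.04 points and neither passed the threshold of 0.05 (adjusted p of 0.110 and 0.230 by Fisher's exact test).

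These differences ran beside those of the chromosomes themselves. The share of shared regions inside genes, divided by the share of the chromosome's length inside genes, was 0.499 on X, within the autosomal range from 0.487 on I to 0.677 on II. Beyond 2000 bp the ratio was 1.45 on X, within the range from 1.34 on IV to 2.21 on V. Within 500 bp of a gene it was 2.01 on X, with 1.36 on V and 2.26 on I as the extremes of the autosomes. For the autosomes together the 3 ratios were 0.595, 1.67 and 1.70. Relative to the room each class offers, X thus lay within the range of the single autosomes in all 3. Against the autosomes together, X was lower inside genes and beyond 2000 bp, and higher within 500 bp. Beyond 2000 bp this is the reverse of the order in plain shares. The part of chromosome layout in the difference between X and the autosomes was not tested further.

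**Figure D2:**
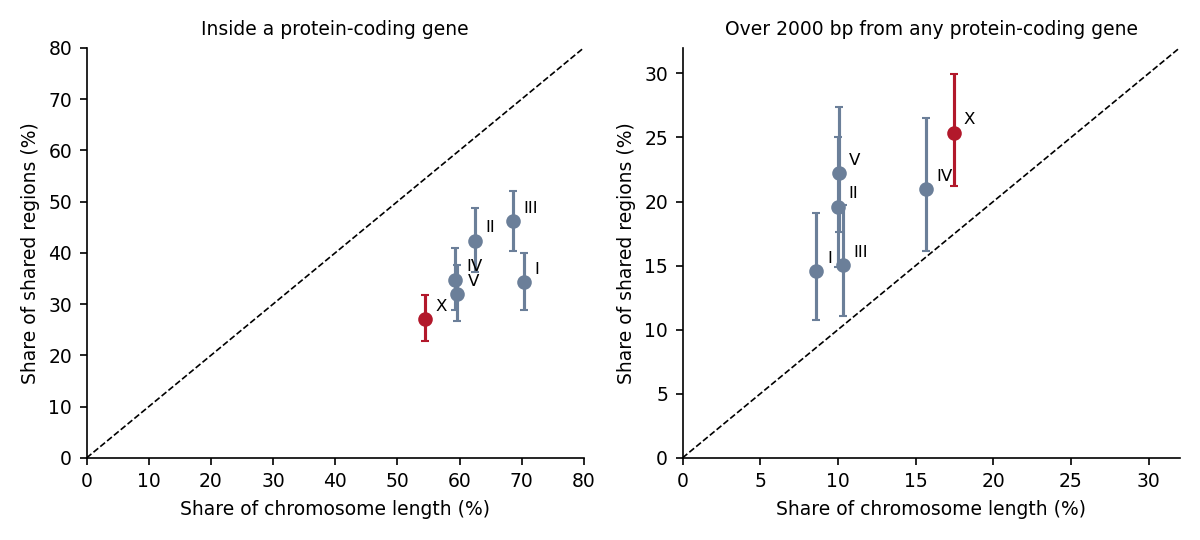
Share of shared regions (vertical, with exact 95% binomial intervals for counting error) against share of chromosome length (horizontal) for 2 classes of place, with each chromosome as a point and X in red. The dashed line marks equal shares. All chromosomes lie below it inside genes and above it beyond 2000 bp, and X has the lowest point on the left (27.1%) and the highest on the right (25.4%), along with the smallest and largest share of length.

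Intervals between genes are longer on X than on the autosomes. The 293 shared X regions outside genes stood in intervals between genes with a median length of 7387 bp, against 5075 bp for the 862 on the autosomes. Weighted by length, the median interval of X was 6976 bp and that of the autosomes 5131 bp. Intervals of 10000 bp or more held 36.9% of these X regions and 34.2% of the intergenic length of X. On the autosomes the 2 shares were 22.97% and 24.5%. Chromosome IV was level with X in layout, with a weighted median of 6971 bp and 34.8% of intergenic length in such long intervals. Its shared regions outside genes stood in intervals with a median of 5188 bp, and 24.8% of them in long ones. The distance to the nearer gene was a median of 1271 bp on X and 983 bp on the autosomes. As a share of the interval it was 0.216 on X and 0.262 on the autosomes. In the lists this share was 0.230, 0.217 and 0.226 on X against 0.262, 0.261 and 0.281, a smaller share of the interval on X in 3 of 3 lists (difference -0.0435; exact permutation test, p = 0.25). In base pairs the order was the reverse, with medians of 1336, 1276 and 1332 bp on X and 1165, 1084 and 945 bp on the autosomes. Of the 402 regions, 250 (62.2%) lay in no annotated gene of any kind, and 52 lay in a gene listed as non-coding RNA.

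The regions were spread along the whole of X. Cut into 3 stretches of equal length, left, middle and right, X held 122, 131 and 149 of them (30.3%, 32.6% and 37.1%). The same stretches held 31.9%, 35.8% and 32.3% of the protein-coding genes of X. In the lists the right stretch held 32.9%, 36.5% and 35.5% of X windows (34.96% ± 1.88, SD, n = 3), so its lead was not seen in replicate 1, where the middle stretch had 33.7%. Among 20 equal bins of 5% of the length, the count ran from 8 in the bin from 15% to 20% to 35 in the bin from 85% to 90%. The second of these was the fullest in every list, with 57, 47 and 55 windows. Of its 35 shared regions, 1 is that at lin-15A, described below. The emptiest bin had 46, 20 and 27 windows, so replicate 1 placed many windows there that the others lacked.

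**Figure D3:**
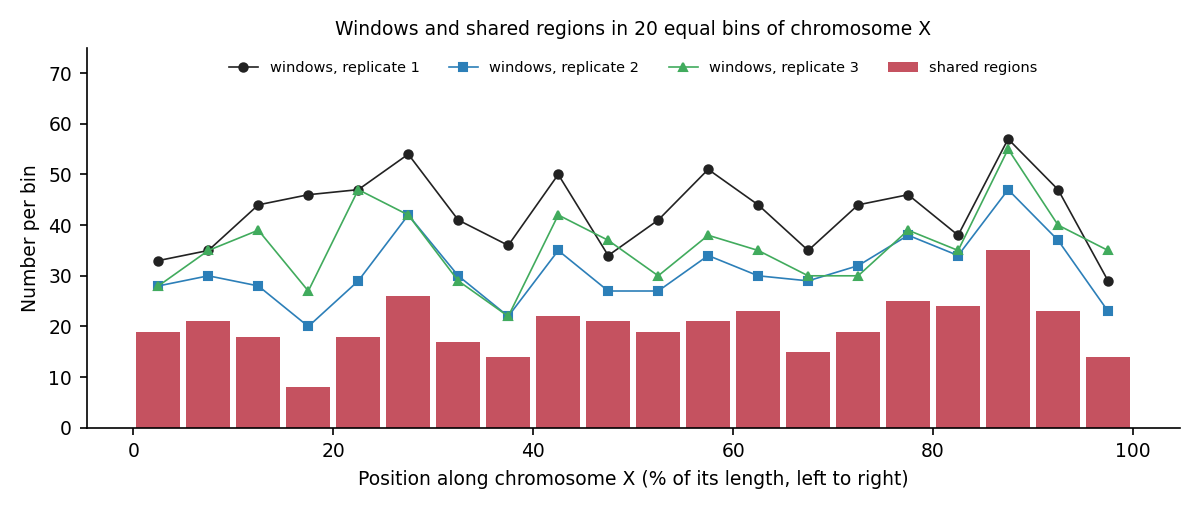
Number of shared X regions (bars) and of windows of each replicate (lines) in 20 equal bins from the left to the right end of chromosome X, given as percent of its length. The bin from 85% to 90% is the highest for the bars (35) and for all 3 lists, and the bars are lowest (8) from 15% to 20%.

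Neighbouring shared X regions stood a median of 31196 bp apart, from 913 bp to 350166 bp. Of 401 gaps, 76 (18.95%) were 5000 bp or less, against 19.3% on the autosomes. The densest stretch of 20000 bp on X held 6 regions, and the densest on an autosome, on chromosome I, held 8. The X stretch ran along syd-9, which encodes a zinc finger protein needed for the organisation of synapses. Of its 6 regions, 2 lay inside syd-9, 2 lay 271 and 1289 bp outside it, 1 lay near spp-22 and 1 lay inside F46H5.3.

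The order of the lines in a list is not explained by any label. It is used here only to choose and place regions. The median shared X region stood at 27.04%, 34.97% and 39.4% of the way through lists 1, 2 and 3, and the median autosomal one at 27.7%, 37.3% and 35.3%. X was slightly earlier in replicates 1 and 2 and later in replicate 3 (mean difference 0.350 ± 3.29 percentage points, SD, n = 3; exact permutation test, p = 1). Across the 402 regions, Spearman's rho of line position was 0.83 between replicates 1 and 2, 0.44 between 1 and 3, and 0.43 between 2 and 3. On the autosomes it was 0.81, 0.37 and 0.32. Regions are not independent replicates, and these values are descriptions.

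Some regions stood early in every list and others in replicate 3 alone. In the first 10% of all 3 lists were 20 shared X regions (4.98%), against 4.04% of the autosomal ones. In the first 10% of list 3 but beyond the first 30% of both others were 13 X regions (3.23%, against 3.90% on the autosomes), while lists 1 and 2 had 0 such regions on X. These limits were chosen after the lists had been seen. One of the 13 lay near hpk-1, a gene for a protein kinase, at line 1505, 1792 and 15. Another lay near cpd-2, T27A8.7 and T27A8.2, at line 1789, 1072 and 19. One more was near ins-39, an insulin-like peptide gene, at line 2560, 1297 and 39.

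The gene ets-5 stood at the head of all lists. Its windows were at line 1 and 2 in replicate 1, at 1, 2 and 3 in replicate 2, and at 1, 5 and 10 in replicate 3. They fell at 3 places. The first is the shared region at chrX:5084088-5084488, and the second is that at chrX:5081167-5081594, with positions of the files counted from 1 and no build named for them in the labels. The remaining place, chrX:5083143-5083542 in replicate 2 and chrX:5083145-5083544 in replicate 3, had no window in replicate 1 and is not a member. Since ets-5 is the tagged gene, binding there and extra copies of it in the strain cannot be told apart here. The next region, chrX:15735649-15736078, stood at line 3, 4 and 3. It lay 503 bp from lin-15A, which acts in vulval development, and near srg-64 of a chemoreceptor family. The neighbour lin-15B had windows in replicates 1 and 3 and no shared region. The lin-15 genes often serve as a marker in making transgenic worms, and whether they did so here was not tested. Without the 9 shared regions within 50000 bp of either locus, a comparison added after the data were seen, 393 X regions remained, with 26.97% inside genes (a difference of -10.8 points from the autosomes; Fisher's exact test, adjusted p = 0.000308).

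Of the 20 best-placed regions by mean line position, 8 lay beyond 2000 bp from protein-coding genes, where 25.4% of all shared X regions lay. All 8 stood between rank 4 and rank 15, and over all members the median line position of regions beyond 2000 bp was later than that of regions inside genes in every list. The nearest genes of the 8 were olrn-1, unc-10, mig-15, Y7A5A.7, B0403.6, R11.3, F12D9.2 and Y102F5A.1. The region nearest to Y7A5A.7, at chrX:15807907-15808306, was at line 5, 117 and 8. The one nearest to olrn-1, a gene of olfactory neuron identity, was at chrX:15534869-15535309, at line 11, 8 and 244, and 2570 bp away. One lay 4714 bp from unc-10, at line 51, 19 and 256. The gene unc-10 encodes RIM, a protein of the presynaptic release site, and had a further shared region 436 bp away at line 669, 1272 and 1659. The region nearest to mig-15, a kinase gene of cell migration, was 7010 bp away, at line 25, 41 and 273.

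Those closer to genes included several with known roles. A region 280 bp from unc-115, which encodes an actin-binding protein of axon guidance, was at line 45, 32 and 231. One 325 bp from pdi-2, a protein disulfide isomerase gene, was at line 28, 27 and 268. Regions near the nuclear receptor genes nhr-48 and nhr-3 stood at line 26, 15 and 204 and at line 86, 78 and 106. From rank 16 to 20 came a region inside grd-1, a hedgehog-related gene, and near the neuropeptide gene nlp-66, then regions near adm-2, near gem-1 with C49F8.14, near sprr-1, a receptor gene, and inside sgk-1, a kinase gene of growth and stress signalling. Line numbers in replicate 3 were the highest of the 3 for each of the regions from rank 7 to 22.

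**Figure D4:**
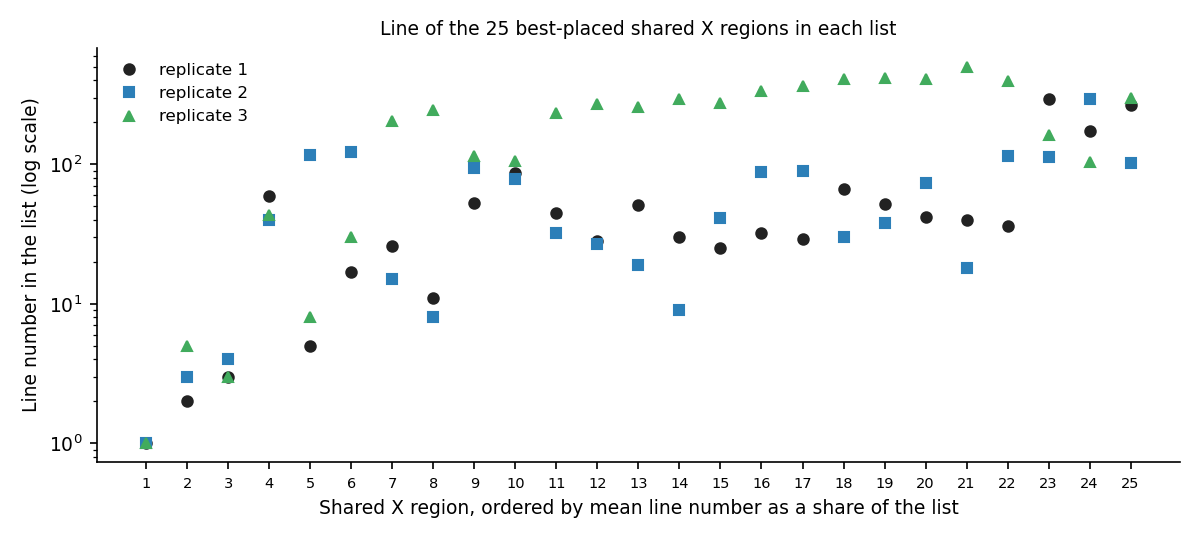
Line number, on a log scale, of the 25 best-placed shared X regions in each of the 3 lists, ordered by mean line position. The first region, in ets-5, is at line 1 in all lists, and from the 7th to the 22nd region replicate 3 (triangles) is the highest point each time.

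Of the 2730 protein-coding genes of X, 290 (10.6%) lay near a shared region in the sense of the gene-end window above. On the autosomes 1195 of 17241 did (6.93%). Chromosome I was close to X, with 10.2%, and V was lowest with 5.05%. In the full lists, 19.3%, 15.9% and 16.7% of X genes lay near a window in replicates 1 to 3, against 12.9%, 11.1% and 14.9% of autosomal genes (17.3% ± 1.76 against 12.97% ± 1.95, SD, n = 3). These shares rest on the window positions that chose the members and are descriptions. A shared region inside the gene was found in 93 X genes (3.41%), against 419 autosomal genes (2.43%). The X genes that held one were long, with a median of 7280 bp against 2508 bp for all X genes, while the median weighted by gene length was 5197 bp. The autosomes showed the same, with 8927 bp against 1946 bp, and 4698 bp when weighted. Of the 402 regions, 183 lay near no gene, 147 near 1, 62 near 2, 8 near 3 and 2 near 4. The last 2 were at chrX:6207605-6208025, near mtp-18, T13C5.6, C14F11.7 and lrch-1, and at chrX:12975550-12975988, near ppk-3, F11C1.4, F11C1.9 and F11C1.10.

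Several genes took more than 1 shared region. The gene lin-14, a regulator of developmental timing, held 3 inside it, at chrX:11467235-11467671 (line 803, 157 and 788), chrX:11473398-11473823 (line 1378, 566 and 1316) and chrX:11475720-11476163, the earliest of them in lists 1 and 2. It had 6, 4 and 6 windows in the 3 lists. The stomatin-like gene sto-2 and taf-3, a gene of the general transcription machinery, also held 3 each, the best of them at line 138, 262 and 548 and at line 674, 796 and 708. With regions near its ends included, syd-9 had 4, and lron-3 and rgs-6 had 3. The longest of the genes with 2 inside was nhr-27, a nuclear receptor gene of 102695 bp. Others with 2 inside were aak-2, which encodes a catalytic subunit of the energy sensor AMPK, ldb-1, a partner of LIM homeodomain factors, and lon-2, which encodes a glypican. The presynaptic calcium channel gene unc-2 showed the reverse pattern, with 6 windows in replicate 1, none in replicate 2, 1 in replicate 3 and no shared region.

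Gene groups on X were read against the 10.6% of all X genes near a shared region. The groups were drawn up with earlier results of these data known, so their shares and their order are descriptions. Among genes used by all neurons, 3 of the 4 on X lay near one: syd-2, which encodes liprin-alpha of the presynaptic site, unc-10, and aex-3, which encodes an exchange factor for Rab3. The autosomal members of that group stood at 13 of 24. The region best placed near syd-2 was at line 541, 166 and 316. The fourth X gene, unc-18, a regulator of vesicle fusion, had a window at line 2884 in replicate 1 and at 1744 in replicate 2 and none in replicate 3. Of the wider synapse and axon group, 8 of 26 X genes (30.8%) lay near a shared region, against 7 of 35 on the autosomes. They were unc-115, syd-2, the syndecan gene sdn-1, syd-9, the innexin gene unc-9, sax-3 of the Robo axon guidance receptors, the stomatin gene unc-1 and the kinase gene sad-1. In the lists, 11, 9 and 10 of the 26 lay near a window. Those with no shared region near or inside included the netrin gene unc-6, which had 1 window in replicate 1 alone, and the touch receptor neuron genes mec-2, mec-4, mec-7 and mec-10.

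Genes of cell signalling showed the highest share among groups with at least 10 X members, 6 of 15, against 3 of 49 on the autosomes (6.12%). They were lin-15A, akt-2 of insulin signalling, sma-9 and kin-29 of body size control, the fibroblast growth factor receptor gene egl-15, and eor-2. The count includes lin-15A through the region described above, at a locus that often serves as a marker in making transgenic worms. The region near egl-15 was at line 711, 1180 and 2899, and the one near eor-2 at line 2441, 2507 and 3548, late in every list. The latter lay 1889 bp from eor-2 and closer to rbc-1, at 824 bp. The Ras pathway scaffold gene ksr-1 and sgk-1 held a region away from their ends. The Wnt pathway gene bar-1, the growth factor gene egl-17 and the transforming growth factor pathway gene daf-3 had none.

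**Figure D5:**
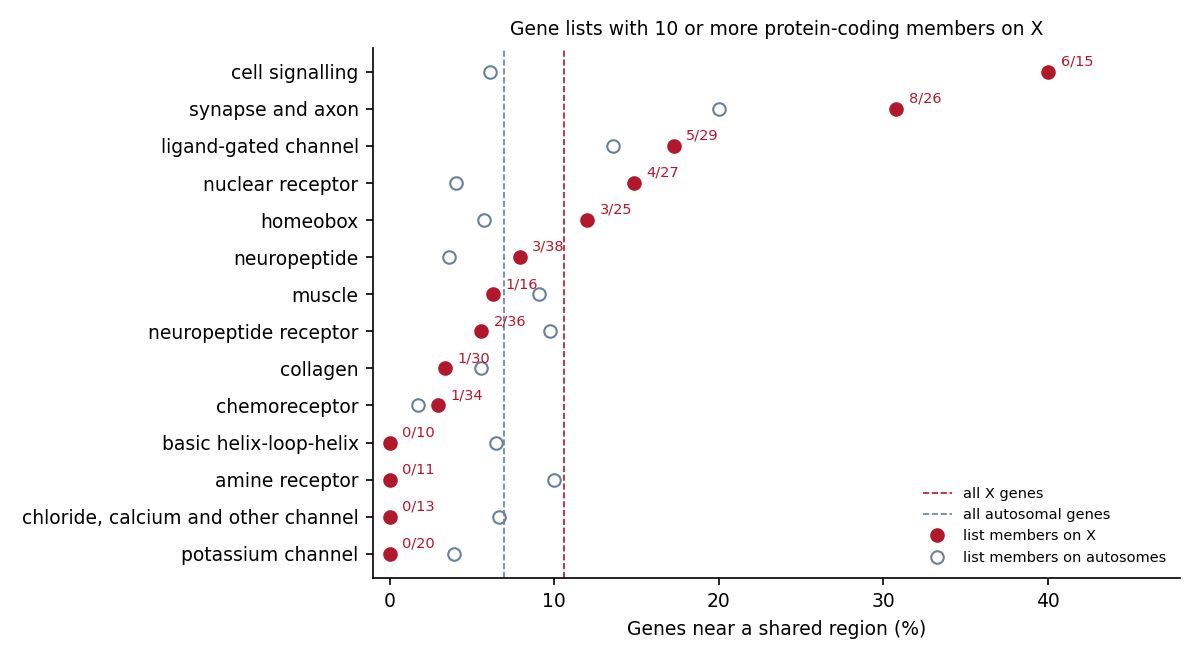
Share of genes near a shared region for gene groups with at least 10 protein-coding members on X, on X (filled, with counts) and on the autosomes (open). Dashed lines mark all X genes (10.6%) and all autosomal genes (6.93%). The groups were drawn up with earlier results of these data known, and their shares were not tested. Cell signalling (6 of 15) and synapse and axon (8 of 26) lie farthest right on X, and 4 groups have 0 listed X members near a region.

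Shares varied among the ion channel and receptor groups, and differences between them were not tested. Ligand-gated channel genes had 5 of 29 X members near a shared region (17.2%, against 13.6% on the autosomes), namely the acetylcholine receptor subunit genes acr-10, acr-12 and acr-2, with lgc-47 and the glutamate receptor gene glr-8. The region 183 bp from acr-12 was at line 478, 682 and 1596. Potassium channel genes had 0 of 20, amine receptor genes 0 of 11 and the group of chloride, calcium and other channels 0 of 13. Their autosomal members stood at 2 of 51, 1 of 10 and 4 of 60. Of the 20 potassium channel genes, 2, 1 and 2 lay near a window in replicates 1 to 3. Groups of this size would hold few such genes at the share of all X genes. These groups were drawn up by gene name and are not complete. The channel genes acd-3 (line 471, 310 and 607) and acc-3 also lay near a shared region and are in none of them. Inside 2 of these genes away from the ends lay a region each, in the tyramine receptor gene ser-2 (line 854, 1465 and 2127) and the T-type calcium channel gene cca-1 (line 488, 748 and 1240). Neuropeptide genes had 3 of 38 (7.89%), nlp-66, nlp-53 and ins-39, and neuropeptide receptor genes had 2 of 36 (5.56%), sprr-1 and npr-36.

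Among the transcription factor groups, nuclear receptor genes had 4 of 27 X members near a shared region (14.8%, against 4.05% on the autosomes), nhr-48, nhr-3, nhr-71 and nhr-1. The genes nhr-40 and nhr-27 held 2 each away from their ends. Homeobox genes had 3 of 25, ceh-89, ceh-39 and ceh-37, and ceh-18 held one inside. The region near ceh-89 is the one near akt-2, at line 144, 158 and 920. Basic helix-loop-helix factor genes had 0 of 10 (2 of 31 on the autosomes) and GATA factor genes 0 of 4 (2 of 8). Among the GATA factor genes on X was the intestine regulator elt-2, whose nearest shared region was 45573 bp away. Of the 4 ETS factor genes on X, ets-5 alone had one.

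The genes by which the embryo counts its X chromosomes and the genes of dosage compensation were looked at since all or some lie on X. The counting elements act by repressing the switch gene xol-1. Of the 4 genes of this group, 2 lay near a shared region: fox-1, an RNA-binding protein gene (425 bp; line 610, 863 and 1005), and ceh-39, a homeobox gene (254 bp; line 1429, 1222 and 1392). The nuclear receptor gene sex-1 and xol-1 had no window inside or within 2000 bp in any list. The nearest shared region to xol-1 was 4941 bp away, at line 1299, 571 and 26. The dosage compensation genes on X, sdc-1 and sdc-2, had none near them.

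BAG neuron genes on X came to 6, of which ets-5 and the homeobox gene ceh-37 lay near a shared region. The region near ceh-37 was 1321 bp away and at line 1564, 2266 and 2357. The others, gcy-9, gcy-31, flp-19 and egl-13, had none. Among guanylyl cyclase genes, odr-1 lay near one, the only one of 5 on X. That region lay inside another gene, cah-4, and 1977 bp from odr-1 (line 976, 509 and 3485). The gene gcy-36, a soluble guanylyl cyclase of oxygen sensing neurons, held one away from its ends (line 496, 2096 and 394). Of the heterochronic genes on X, which time development, let-7, a microRNA gene, had a shared region 1778 bp away (line 1507, 433 and 1664), which lay closer to wshc-2, and lin-14 held its 3. The nuclear receptor gene daf-12 had no window inside or within 2000 bp in any list.

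The remaining groups are given with their autosomal members and without a test. Muscle genes had 1 of 16 on X near a shared region (6.25%, against 9.09% on the autosomes), the troponin gene tnt-2, and the actin gene act-4 held one inside. Actin genes have near-identical copies, so reads may be shared between them. Collagen genes had 1 of 30 (3.33%, against 5.52%), col-176, and chemoreceptor genes 1 of 34 (2.94%, against 1.73%), srg-64 beside lin-15A. The vitellogenin genes, which encode yolk proteins and lie on X but for 1, had 0 of 5. Histone genes had 0 of 5 on X and 6 of 75 on the autosomes, heat shock genes 0 of 3 and 10 of 22, and C-type lectin genes 0 of 3 and 7 of 236. Of the 2 ribosomal protein genes on X, rpl-11.2 had a region 356 bp away, among the 25 best-placed, and 24 of 76 autosomal ones had one near. None of the germline genes chosen lies on X. Shares over a few genes change much with 1 gene, and neighbouring genes can share a region.

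Windows at small RNA genes of X were unevenly spread over the lists. Within 200 bp of one of the 276 transfer RNA genes of X lay 5 windows of replicate 1 (0.587% of its X windows), 6 of replicate 2 (0.965%) and 34 of replicate 3 (4.76%). On the autosomes, with 336 such genes, the counts were 10, 4 and 31 (0.338%, 0.174% and 1.04%). Of the shared X regions, 2 lay at a transfer RNA gene, F41D9.t3 and R04A9.t1. Transfer RNA genes occur in near-identical copies, so these windows are uncertain. At small nuclear RNA genes, of which X has 3, there were no X windows in any list. Within 200 bp of a microRNA gene lay 0, 0 and 2 X windows in replicates 1 to 3 and 0 shared X regions, against 3 shared regions on the autosomes. Counted instead with the wider gene-end window, microRNA genes had 6 of 72 on X near a shared region (8.33%, against 10.8% on the autosomes). They were mir-54, mir-55 and mir-56, which neighbour each other, mir-249, let-7 and mir-1829.2.

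The place of X regions was also counted by how many lists held them. Of the 453 regions of 1 list, 35.1% lay inside a protein-coding gene, 31.1% of the 264 of 2 lists and 27.1% of the 402 of all 3. Within 500 bp of a gene lay 16.1%, 21.2% and 22.1%. Beyond 2000 bp the shares were 27.6%, 25.4% and 25.4%. By line position, the 109 X regions inside genes stood at a median of 22.8%, 30.7% and 40.6% of lists 1 to 3, and the 102 beyond 2000 bp at 28.8%, 36.1% and 42.6%. These values describe the regions and were not tested.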

How the data were processed

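Windows for the 3 ETS-5 precipitates were deposited by the authors as positions (chromosome, start and end, each window 400 bp wide, no header). The submitters' processing notes name Bowtie2 and MACS2 with no version. No build, threshold, control or meaning of line order is given in the sources used here, and starts were taken as counted from 0. Inputs and wild-type precipitates (9 samples) were not analysed here. For genes, the symbols and ends were those of a RefSeq table of assembly WBcel235, which gives no strand. Since the build of the windows is unknown, their fit to this table was checked: 27.1% of X regions lay inside genes as deposited, 28.4% (left) and 26.6% (right) after moves of 100 bp, and 38.3% and 38.1% after 500 bp. This does not fix the accuracy of distances, and smaller or local offsets were not tested.

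Each region was placed by the mean centre of its windows. Chromosome length is the last position in the table or lists. Place was tested by Fisher's exact test with Benjamini-Hochberg adjustment over 5 overlapping measures (threshold 0.05), and list means by exact sign-flip permutation. Binomial intervals are exact (95%) and cover counting error only. The merging was checked on simulated windows with a planted answer. The place test was run only on simulated independent counts with a difference built in. How often it calls a difference where none exists was not checked.

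Named genes are those at the 20 best-placed X regions, up to 8 of each of 30 gene lists on X, 15 fixed genes, genes at the regions with most genes, at the densest stretch and with 3 or more regions; others are named to complete counts. Members, lists and tests were chosen with earlier results of these data known. Planned counts of ETS motifs in promoters were not run, and no sequence is shown. Python 3.11.15, scipy 1.17.1 and numpy 2.4.6 were used.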

Additional observations from a re-analysis of the deposited data

How the results depend on the processing

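The lower share of X regions inside genes and the higher share beyond 2000 bp kept their direction and passed Fisher's exact test in every alternative run except the count of all annotated genes. There the differences from the autosomes were -6.49 points (Fisher's exact test, adjusted p = 0.110) and 3.04 points (Fisher's exact test, adjusted p = 0.230). The difference in the share near a gene end turned from -1.22 to 3.85 points (Fisher's exact test, adjusted p = 0.230). The cause was not tested. All runs reuse the same lists, count regions as independent and take the autosomes together. None adjusts for the share of each chromosome's length inside or far from genes, against which X lay within the autosomal range. Relative to that length, the share beyond 2000 bp was lower on X than on the autosomes together (ratios of 1.45 and 1.67). Leaving out each replicate in turn gave -10.8 to -9.19 points inside genes, 5.60 to 6.95 beyond 2000 bp, -2.10 to -0.727 near a gene end, 426 to 561 shared regions on X, a share on X of 21.2% to 22.4%, and 306 to 389 X genes near a region. With the first 50% of lines, X held 180 regions and both adjusted p were 0.0496 (Fisher's exact test). Regions of at least 2 replicates numbered 666 on X, with 448 X genes near one. The number of X genes near a region was 161 with 1000 bp outside and 0 bp inside, 548 with 5000 bp outside, and 213 with the nearest gene only, against 290. The narrow limits counted 5.90% of X genes and 3.98% of autosomal ones, the wide limits 20.1% and 13.8%. No paired analysis was possible because only 1 group had window lists used here, so no groups could be blocked by replicate number; X and the autosomes were paired within each list in the permutation tests. The motif alternative was not run. With no read counts, what depth limits is unknown, and a missing window says only that the list holds none there.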
